A study of Mus musculus with 24 samples.

Results

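The 10 genes described here encode liver-secreted hormones and binding proteins, 2 receptors and the first steps of insulin signalling. They are Fgf21, Igfbp1, Igfbp2, Angptl4, Angptl8 and Gdf15 among the secreted factors, Lepr and Insr among the receptors, and Irs1 and Irs2 among the adaptors. They were chosen by symbol, as genes that report fasting and feeding, and each symbol matched 1 of the 56941 genes in the table. All 10 passed the filter on low counts, which left 20514 genes to test. Their levels were measured by RNA-seq of polyadenylated RNA from mouse liver.

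KO mice lacked Bmal1 in the whole body (Bmal1-/-) and were set against WT mice (Bmal1+/+) from the same Bmal1+/- breeding on C57BL/6J. LKO mice carried Alb-Cre with Bmal1f/f, so that deletion followed the albumin promoter, which is active chiefly in hepatocytes and leaves Bmal1 in other liver cells and other organs. Their controls were F mice, which had the same floxed alleles without Cre, so the pair differed also in the presence of Cre. Each genotype was sampled at circadian time CT14, early in the subjective night when mice begin to feed, and at CT2, early in the subjective day. That gave 8 groups of 3 libraries, 24 in all. The animals' age, sex and feeding state at collection are not stated in the labels used here. The labels also do not say whether the 3 libraries of a group came from separate animals, so the p-values measure the spread between these libraries, which may be technical.

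After a meal, insulin binds its receptor on hepatocytes, and the receptor passes the signal on through the adaptor proteins IRS1 and IRS2 to PI3 kinase and AKT. AKT keeps FOXO transcription factors out of the nucleus. When insulin is low, FOXO proteins raise transcription of Irs2 and Igfbp1 in liver, so both transcripts are known as fasting genes, while Angptl8 is known as a gene induced by feeding and insulin. BMAL1 is a transcription factor of the circadian clock that binds E-boxes together with CLOCK, and its loss removes the behavioural rhythm when it occurs in the whole body.

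The promoters of Irs2, Igfbp1 and Angptl8, the members whose levels varied together over the libraries, are shown with the motif letters found in each. They are the 250 bases before the transcription start, from RefSeq on build GRCm38.p6, written 5′ to 3′ on the gene's own strand, with motif matches in capitals. The motifs searched on both strands were the E-box CACGTG, the RORE core TAGGTCA, the insulin response sequence TNTTTTG, the forkhead motif GTAAACA, the cAMP response element half-site TGACG, the amino acid response element TGATGNAA and the CCAAT box. The Irs2 promoter, on the minus strand at chr8:11008930-11009179, held an E-box and, just downstream of it, an insulin response sequence, as well as 2 CCAAT boxes. The Igfbp1 promoter, on the plus strand at chr11:7197537-7197786, held a pair of insulin response sequences in opposite orientations. The Angptl8 promoter, on the plus strand at chr9:21835260-21835509, held 1 amino acid response element.
Irs2: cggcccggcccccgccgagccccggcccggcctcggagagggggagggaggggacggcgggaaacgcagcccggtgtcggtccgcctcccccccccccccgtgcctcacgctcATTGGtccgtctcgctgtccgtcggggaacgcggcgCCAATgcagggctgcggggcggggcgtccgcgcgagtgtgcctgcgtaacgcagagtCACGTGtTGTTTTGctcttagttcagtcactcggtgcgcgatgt
Igfbp1: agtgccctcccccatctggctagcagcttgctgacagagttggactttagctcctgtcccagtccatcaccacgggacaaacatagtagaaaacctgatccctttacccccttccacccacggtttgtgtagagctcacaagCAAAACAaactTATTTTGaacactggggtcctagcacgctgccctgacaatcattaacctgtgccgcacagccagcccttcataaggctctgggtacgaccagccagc
Angptl8: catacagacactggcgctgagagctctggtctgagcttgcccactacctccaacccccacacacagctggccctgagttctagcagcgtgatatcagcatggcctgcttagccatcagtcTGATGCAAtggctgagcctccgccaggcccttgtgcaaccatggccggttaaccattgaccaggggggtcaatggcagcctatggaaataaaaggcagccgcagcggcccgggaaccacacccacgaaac

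Counted from the transcription start, the E-box of Irs2 lay at −44 to −39 and its insulin response sequence at −37 to −31. The 2 insulin response sequences of Igfbp1 lay at −108 to −102 and −97 to −91, and the amino acid response element of Angptl8 lay at −130 to −123. Among all 32851 mouse promoters of the same length, 6.02% held an E-box, 16.9% an insulin response sequence, 3.45% an amino acid response element and 33.8% a CCAAT box, and a match describes the letters only. The promoter tables covered 8 of the 10 members with 11 promoters. Irs2 overlaps 9530052E02Rik and Angptl8 overlaps Dock6, each on the opposite strand. The library kit marked strand, but the strand setting of the counting is not given in the sources used here, so reads of each pair may be mixed. An E-box also stood in a promoter of Fgf21, Irs1, Igfbp2 and Gdf15. In Irs1 the E-box overlapped an insulin response sequence and a cAMP half-site.

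Each library held 88995259 to 131544733 estimated counts, and replicates of a group had a Pearson's r of 0.933 to 0.973 over genes (log2 CPM). Bmal1 averaged 7.39 ± 0.22 counts scaled by library total (CPM) in KO against 31.9 ± 1.66 CPM in WT at CT2 (SD, n = 3 each), a log2 fold change of −2.11 ± 0.36 (SE, edgeR quasi-likelihood test, Benjamini-Hochberg adjusted p = 0.00576). In LKO at CT2 Bmal1 was lower than in F by a log2 fold change of −1.95 ± 0.36 (edgeR, adjusted p = 0.0112), a call lost without LKO CT2 replicate 1 or 2 (adjusted p up to 0.064). Both calls were lost without the 3 libraries with low Ddx3y described below. At CT14 neither difference passed the test, and the tables do not show whether the remaining reads lie outside the deleted exons. Bmal1 then averaged 7.10 ± 0.43 CPM in KO, 5.85 ± 2.67 in WT, 5.64 ± 0.28 in LKO and 9.54 ± 5.90 in F (SD, n = 3 each). Both controls were lower at CT14 than at CT2, by 2.45 ± 0.37 on the log2 scale in WT and 1.58 ± 0.35 in F (edgeR, adjusted p = 0.000431 and 0.017). Hepatocyte markers, 9 genes led by albumin, summed to 61342 to 98156 CPM in KO and to 94274 to 124096 CPM in WT. They summed to 66841 to 91470 CPM in LKO and to 96910 to 141590 CPM in F. The sums were lower in both knockouts, with a small overlap between KO and WT, and the part of this difference in the results below was not tested. In bulk tissue, fewer cells of a type and less RNA per cell cannot be told apart. Islet hormone genes were at or near 0: Gcg and Iapp had 0 counts in all 24 libraries, and the adipocyte hormone gene Lep had 0 in all 24. Acinar cell markers of the pancreas reached 2767 CPM in F CT2 replicate 3 and 765 CPM in F CT14 replicate 3, against 24.2 to 102 CPM elsewhere. Spermatid markers, 10 genes, summed to 14.7 CPM in KO CT2 replicate 2 and 16.5 CPM in KO CT14 replicate 1, against 5.36 to 8.10 CPM in the other KO libraries and 6.58 to 8.996 CPM in WT. In the floxed line the same sum was 16.3 to 28.4 CPM in LKO and 12.4 to 38.2 CPM in F, so every library of that line was above every WT library. In 3 libraries, KO CT2 replicate 1, F CT2 replicate 3 and LKO CT2 replicate 3, the Y-linked gene Ddx3y was low (9.61, 3.86 and 8.15 CPM) and long transcripts were depleted relative to short ones. The female-specific transcript Xist was at 0.0429, 0 and 0 CPM in them. All 24 libraries had Ddx3y of at least 3.86 CPM and Xist of at most 0.362 CPM, the pattern of male tissue.

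Per transcript length, the members covered a wide range of levels in liver. Igfbp2, an insulin-like growth factor binding protein, had the highest median over the 24 libraries, 582 TPM. Angptl8 followed at 120 TPM, then Igfbp1 at 25.5 TPM, Insr at 17.3 TPM and Angptl4 at 16.5 TPM. Irs2 had a median of 5.95 TPM, Gdf15 4.08 TPM, Irs1 3.72 TPM, Fgf21 1.57 TPM and Lepr 0.599 TPM. Only Igfbp2 stood clear of its neighbour in every library, above Angptl8 in 24 of 24. Each other neighbouring pair in this order changed places in some libraries. Insr exceeded Angptl4 in 12 of 24 libraries, and Gdf15 exceeded Irs1 in 14 of 24.

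The members also differed in how far their own levels spread. Igfbp1 spanned 121-fold in CPM, from 4.59 CPM in an F CT14 library to 554 CPM in an LKO CT2 library. Fgf21 spanned 30.3-fold, Gdf15 19.6-fold, Angptl8 17.5-fold, Lepr 13.4-fold, Irs2 12.2-fold and Angptl4 11.1-fold. The insulin receptor and IRS1 transcripts spanned least, 2.21-fold for Insr and 2.60-fold for Irs1. Within groups, the pooled SD on the log2 CPM scale was 1.31 for Igfbp1, 1.13 for Fgf21 and 0.88 for Angptl8, against 0.49 for Irs2, 0.44 for Igfbp2 and 0.28 for both Insr and Irs1. The members that swung most between libraries of a group had the widest errors on their fold changes.

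**Figure D1:**
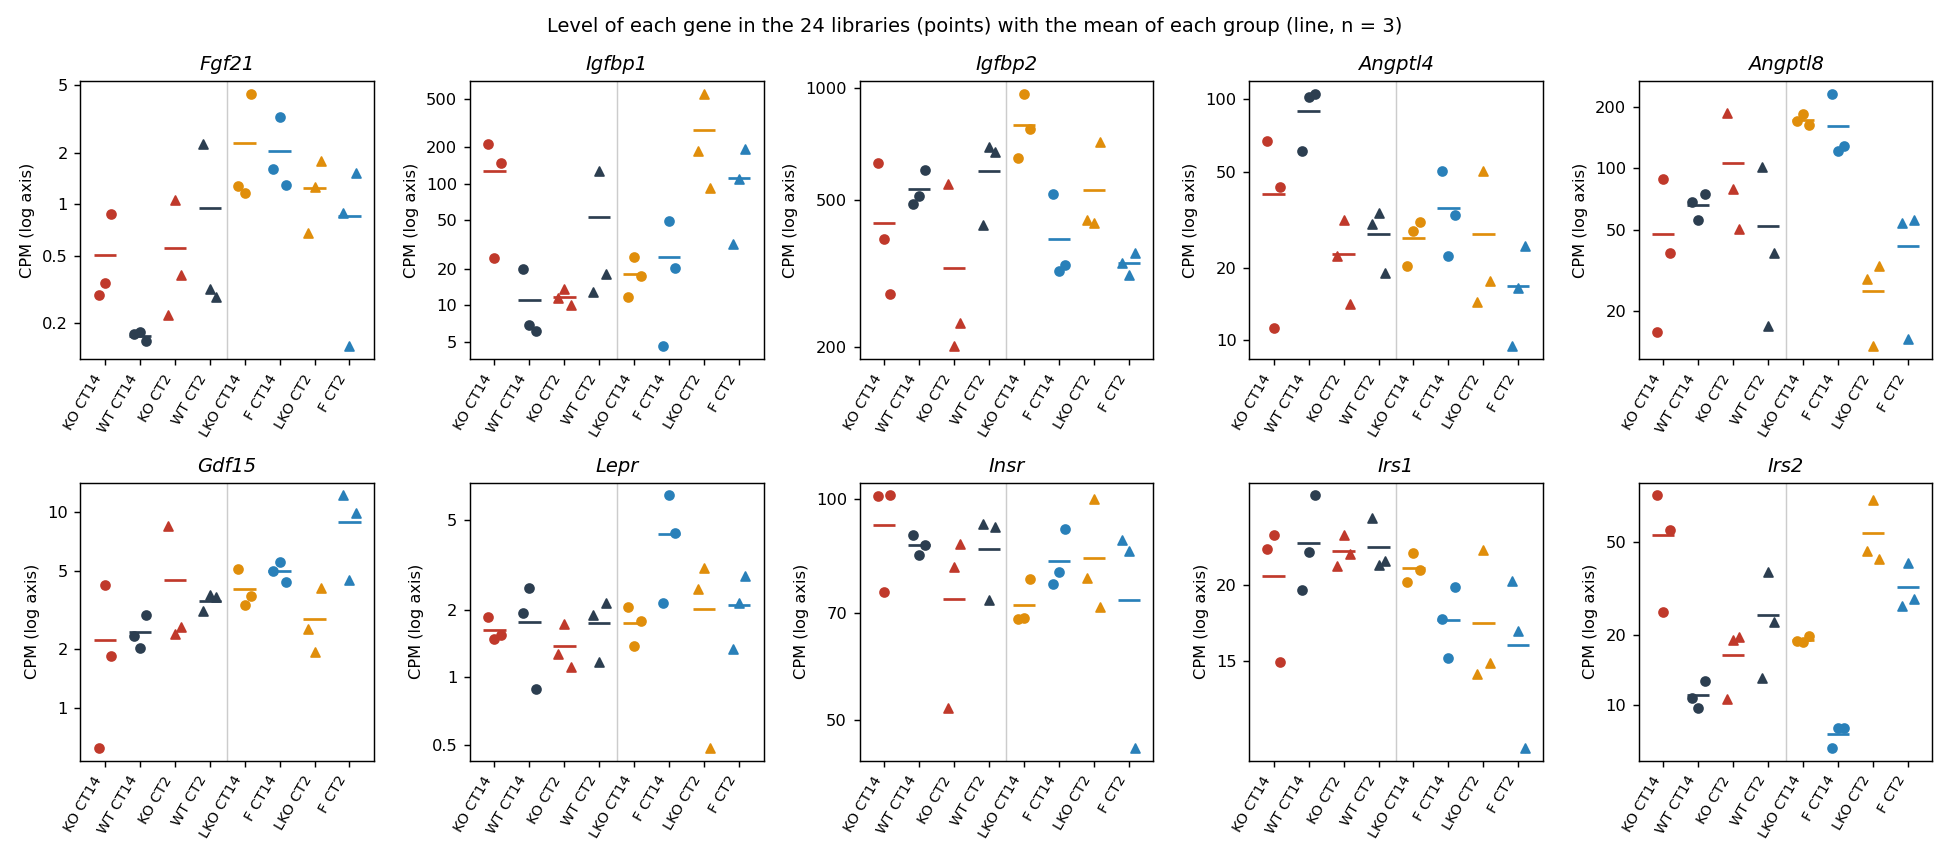
Level of each of the 10 genes in CPM (log axis) in the 24 libraries (points, circles for CT14 and triangles for CT2), with the mean of each group of 3 as a line. The 3 KO CT14 points of Irs2 (25.0 to 79.4 CPM) lie above the 3 WT CT14 points (9.73 to 12.7 CPM), whereas Insr and Irs1 overlap between nearly all groups.

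Irs2, the adaptor that links the insulin receptor to PI3 kinase and is the more dynamic of the 2 liver IRS transcripts, was the only member that passed the test in any of the 14 comparisons. In KO livers at CT14 it had 79.4, 25.0 and 56.2 CPM, against 10.7, 9.73 and 12.7 CPM in WT livers. The 2 groups did not overlap, and the KO libraries were the more widely spread. The log2 fold change was 2.27 ± 0.38, a 4.84-fold rise (SE, edgeR quasi-likelihood test, adjusted p = 0.000776). Among the members, 1 of 10 was called in this comparison, while 5.31% of all tested genes were called and 3.15% were called higher. Leaving out each of the 6 libraries in turn kept the log2 fold change between 1.88 and 2.61, with adjusted p from 0.000122 to 0.00901 (edgeR). Without the 2 KO libraries that held spermatid transcripts it was 1.88 (edgeR, adjusted p = 0.00724). At CT2 the order was not the same. Irs2 had 10.6, 19.1 and 19.5 CPM in KO livers and 13.0, 37.4 and 22.6 CPM in WT livers, and the groups overlapped (log2 fold change −0.57 ± 0.36, edgeR, adjusted p = 0.743, where 0.517% of all genes were called).

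The direction of the time difference in Irs2 was opposite in KO and WT. In KO livers the CT14 libraries (25.0 to 79.4 CPM) all lay above the CT2 libraries (10.6 to 19.5 CPM). In WT livers the CT14 libraries (9.73 to 12.7 CPM) all lay below the CT2 libraries (13.0 to 37.4 CPM). The difference between these time effects was 2.85 ± 0.52 on the log2 scale (edgeR, adjusted p = 0.0074), and 0.799% of all genes were called in that comparison, 0.502% higher. It held without each of the 12 libraries in turn, at 2.40 to 3.19. Neither time difference alone passed the test in the edgeR model, although both did in the authors' deposited tables described below. In KO it was 1.71 ± 0.37 (edgeR, adjusted p = 0.624), a comparison with no called gene and 753 genes under an unadjusted p of 0.05, of which 2 were members. In WT it was −1.14 ± 0.37 (edgeR, adjusted p = 0.127), where 2.54% of all genes and none of the members were called.

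In the liver-specific line the time pattern of Irs2 kept the direction of its control. F livers had 6.52, 7.98 and 7.95 CPM at CT14, against 26.7, 40.7 and 28.5 CPM at CT2. The groups were far apart, and Irs2 fell by 2.09 ± 0.38 on the log2 scale at CT14 (edgeR, adjusted p = 0.00368), the 1 member called where 2.66% of all genes were called and 1.33% were called lower. LKO livers had 18.7, 18.6 and 19.8 CPM at CT14, against 45.8, 75.7 and 42.2 CPM at CT2. These also did not overlap, with a log2 difference of −1.52 ± 0.37 just outside the threshold (edgeR, adjusted p = 0.0554, where 0.848% of all genes were called). The time effect in LKO differed from that in F by 0.57 ± 0.51 (edgeR, adjusted p = 1, where 0.112% of all genes were called).

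At each time the LKO libraries lay above the F libraries. At CT14 every LKO library (18.6 to 19.8 CPM) exceeded every F library (6.52 to 7.98 CPM), with a log2 fold change of 1.35 ± 0.37 (edgeR, adjusted p = 0.0726, where 1.73% of all genes were called). At CT2 every LKO library (42.2 to 75.7 CPM) exceeded every F library (26.7 to 40.7 CPM), with 0.77 ± 0.36 (edgeR, adjusted p = 0.544, where 0.4% were called). Averaged over both times, Irs2 rose 2.08-fold in LKO, by 1.06 ± 0.26 on the log2 scale (edgeR, adjusted p = 0.0261). It was the 1 member called among 3.13% of all genes called, 1.7% higher. This call was fragile: it was lost when any of 8 of the 12 libraries was left out, with adjusted p up to 0.0837, and without the 2 F libraries that carried pancreatic markers (adjusted p = 0.0999) or the 3 with few long transcripts (adjusted p = 0.0541), although the log2 fold change stayed between 0.90 and 1.16 over the left-out libraries. The corresponding mean in KO against WT was 0.85 ± 0.26 (edgeR, adjusted p = 0.0582), and 0 of 10 members were called where 5.4% of all genes were. It joined results of opposite sign at the 2 times. The difference between the KO effect and the LKO effect was −0.21 ± 0.36 (edgeR, adjusted p = 1, where 0.107% of all genes were called).

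**Figure D2:**
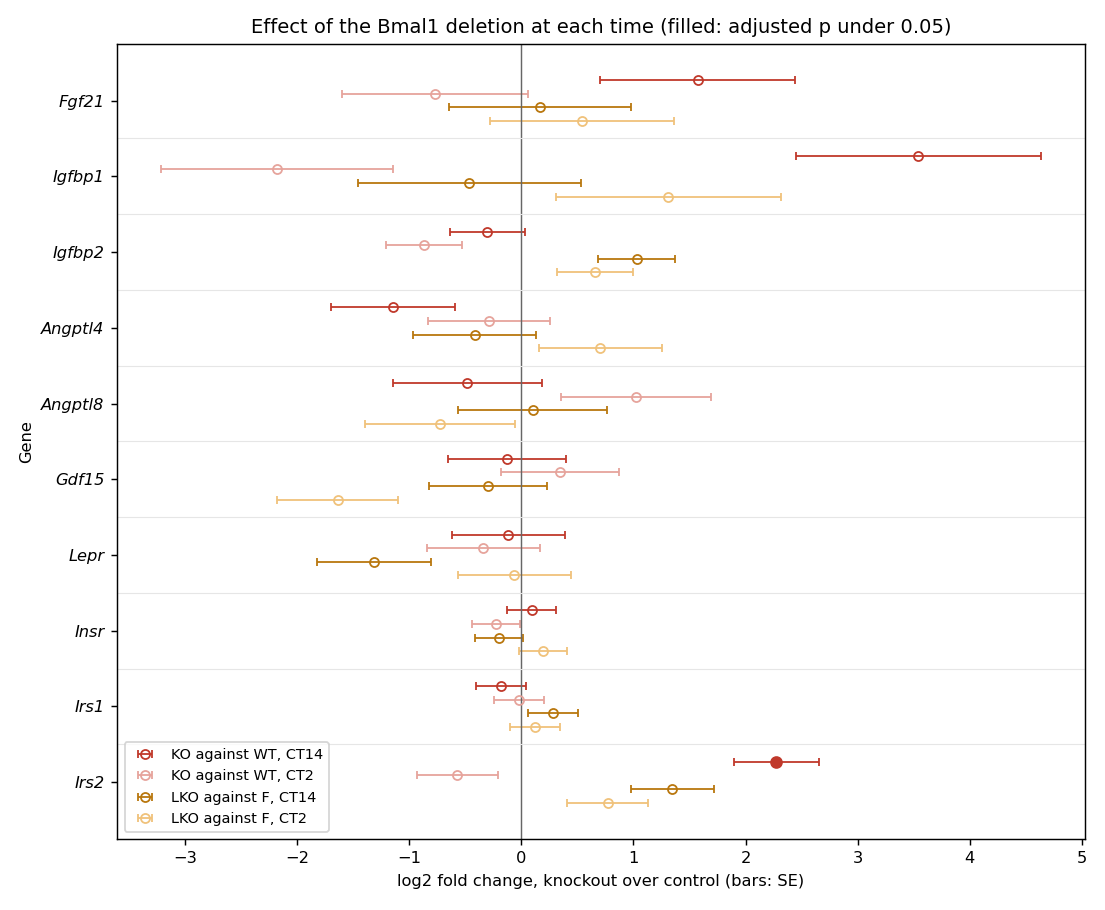
Log2 fold changes of the 10 genes in KO over WT and LKO over F at each time, with standard errors as bars and filled points for adjusted p under 0.05 (edgeR). Irs2 at CT14 in KO over WT, at 2.27 ± 0.38, is the filled point, and Igfbp1 in the same comparison lies further out with a wider bar, at 3.54 ± 1.09.

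Igfbp1, the insulin-repressed binding protein that the liver secretes in fasting, followed Irs2 in direction in KO at CT14 but with a much larger spread. It had 213, 24.4 and 148 CPM in KO livers at CT14, against 20.1, 6.95 and 6.12 CPM in WT livers. All 3 KO libraries were higher, yet the lowest of them was close to the highest WT library. The log2 fold change of 3.54 ± 1.09 did not pass the test (edgeR, adjusted p = 0.074). Without KO CT14 replicate 2, the low library, it was 4.03 with adjusted p = 0.0483 (edgeR). That was the 1 of 6 fits with 1 library left out that passed. Over all 6 the log2 fold change was 2.96 to 4.30, with adjusted p up to 0.258 (edgeR). Across the members, 3 of 10 (Irs2, Igfbp1 and Fgf21) had every KO library above every WT library at CT14 and 0 had every one below, where the shares over all genes were 13.4% and 12.5%.

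At CT2 the KO libraries of Igfbp1 were uniformly low. They had 11.5, 13.6 and 10.02 CPM, against 12.9, 128 and 17.97 CPM in WT livers, with 1 WT library far above the others. The time difference within KO, 3.45 ± 1.09 on the log2 scale with all CT14 libraries above all CT2 libraries, was uncalled (edgeR, adjusted p = 1), as was the difference of time effects between KO and WT, 5.72 ± 1.5 (edgeR, adjusted p = 0.107). In KO at CT14 against CT2, 2 of 10 members, Igfbp1 and Irs2, had every CT14 library higher and 0 had every one lower, and 4.09% and 3.54% of all genes did so.

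In LKO livers Igfbp1 ran the other way over time. It had 11.8, 25.0 and 17.4 CPM at CT14, against 186, 554 and 91.8 CPM at CT2. The times were fully separated, with a log2 difference of −3.94 ± 1.11 (edgeR, adjusted p = 0.116). F livers had 4.59, 49.9 and 20.3 CPM at CT14, against 31.8, 110 and 193 CPM at CT2, with overlap (−2.17 ± 1.03, edgeR, adjusted p = 0.332). LKO and F overlapped at both times.

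Angptl8, a secreted inhibitor of lipoprotein lipase that feeding induces, was the mirror image in the floxed line. LKO livers had 172, 185 and 164 CPM at CT14, against 28.7, 13.3 and 33.2 CPM at CT2. F livers had 233, 122 and 130 CPM at CT14, against 53.9, 14.5 and 55.8 CPM at CT2. In both genotypes every CT14 library was above every CT2 library, by 2.79 ± 0.71 on the log2 scale in LKO (edgeR, adjusted p = 0.0735) and by 1.97 ± 0.69 in F (edgeR, adjusted p = 0.153). LKO and F overlapped at each time, with log2 differences of 0.10 ± 0.66 at CT14 and −0.72 ± 0.67 at CT2. In the global line no such separation was seen. KO livers had 15.6, 88.6 and 38.3 CPM at CT14 and 188, 79.1 and 50.5 CPM at CT2, and WT livers 68.7, 55.6 and 74.8 CPM at CT14 and 101, 16.8 and 38.6 CPM at CT2. The time difference was −1.16 ± 0.67 in KO and 0.35 ± 0.66 in WT, and the difference between these was −1.51 ± 0.94 (edgeR, adjusted p = 0.722).

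**Figure D3:**
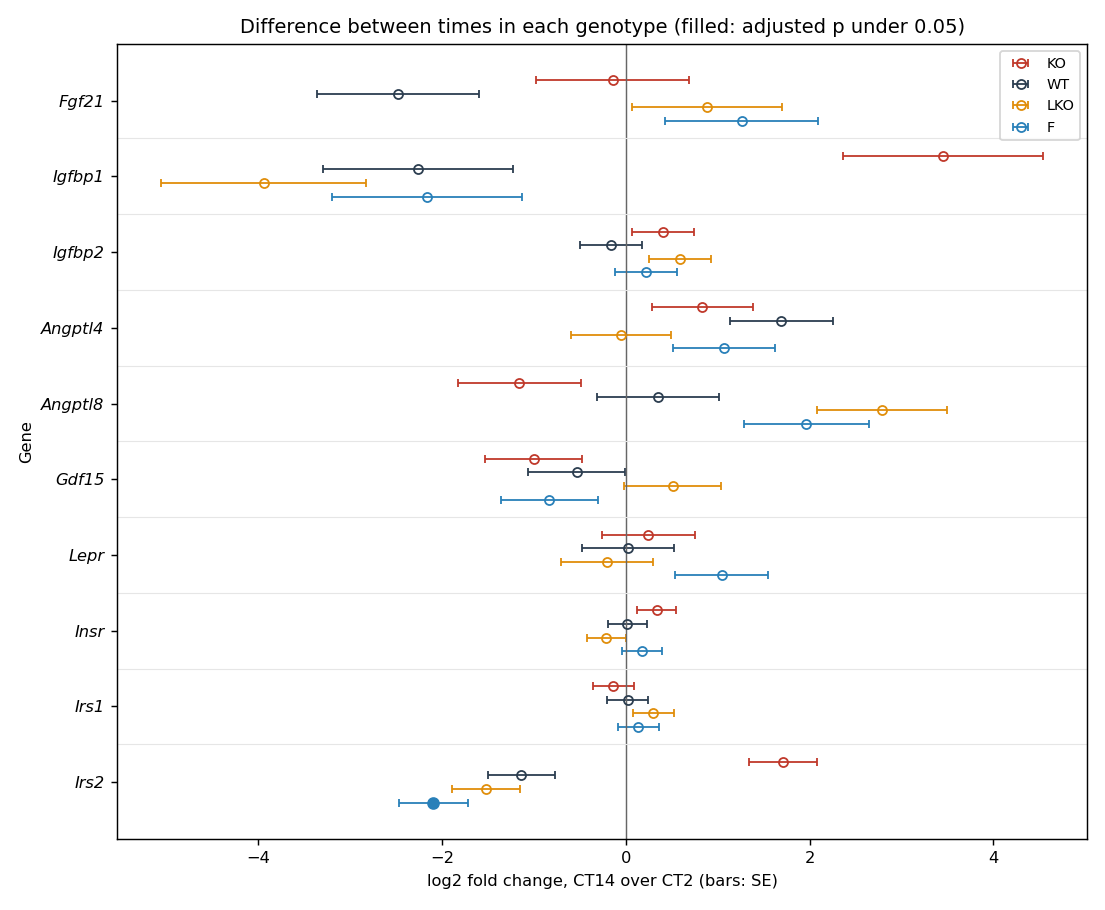
Log2 fold change of each gene at CT14 over CT2 within KO, WT, LKO and F, with standard errors as bars and filled points for adjusted p under 0.05 (edgeR). Irs2 lies at 1.71 in KO and between −2.09 and −1.14 in WT, LKO and F, and Igfbp1 shows the same arrangement with wider bars (3.45 in KO, −3.94 to −2.17 in the others).

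Over the 24 libraries, Irs2, Igfbp1 and Angptl8 varied together, Angptl8 in the opposite sense. Pearson's r on log2 CPM was 0.83 between Igfbp1 and Irs2 and Spearman's rho 0.78 (permutation p = 1e-05 for both, the smallest that 100000 permutations can give; adjusted over 45 pairs p = 0.000225). Between Angptl8 and Irs2, r was −0.80 and rho −0.80, and between Igfbp1 and Angptl8, r was −0.74 and rho −0.65. Without the 2 libraries farthest from the median of the gene named first, r was 0.76 for Igfbp1 with Irs2, −0.76 for Angptl8 with Irs2 and −0.65 for Igfbp1 with Angptl8. The permutations shuffled all 24 libraries and ignored the 8 groups, so the permutation p-values do not allow for levels shared within a group. The libraries of 1 group share genotype and time, so r was also taken on deviations from the group means, without a p-value. It was 0.70 for Igfbp1 with Irs2, −0.92 for Angptl8 with Irs2 and −0.64 for Igfbp1 with Angptl8. Replicates of the same group therefore also differed along this axis.

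KO CT14 replicate 2 was an example within 1 group. It had the lowest Irs2 (25.0 CPM), Igfbp1 (24.4 CPM) and Angptl4 (11.3 CPM) of its group and the highest Angptl8 (88.6 CPM) and Gdf15 (4.25 CPM). KO CT14 replicate 1 was at the other end, with 79.4, 213 and 67.1 CPM of Irs2, Igfbp1 and Angptl4 and 15.6 and 0.622 CPM of Angptl8 and Gdf15. WT CT2 replicate 2 held the highest Irs2 (37.4 CPM) and Igfbp1 (128 CPM) and the lowest Angptl8 (16.8 CPM) of its own group. These libraries were singled out after their values were seen, and no label sets them apart from the other replicates.

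**Figure D4:**
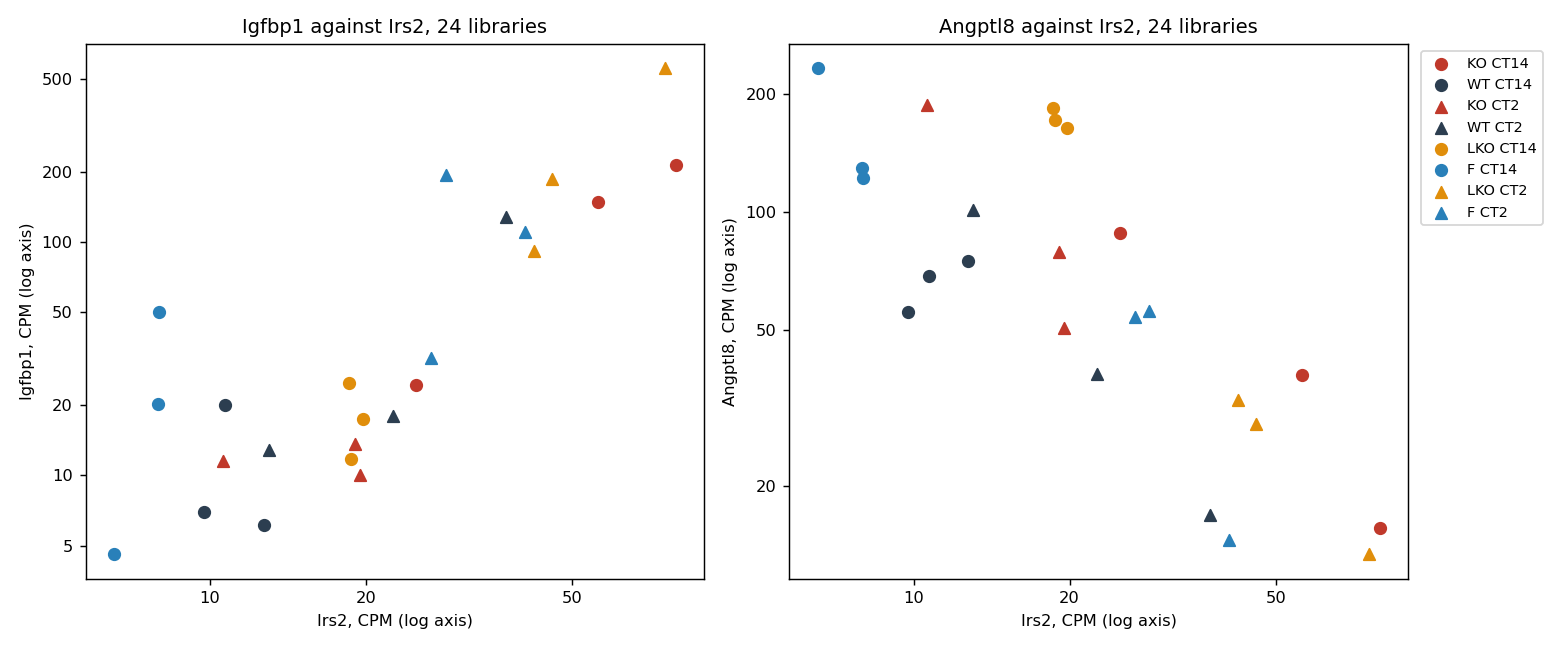
Igfbp1 and Angptl8 against Irs2 in each of the 24 libraries, both axes in CPM on log scales, coloured by genotype with circles for CT14 and triangles for CT2. Igfbp1 increases with Irs2 (r = 0.83) and Angptl8 decreases (r = −0.80), within groups as well as between them.

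The 3 genes whose pattern over the 24 libraries was most like that of Irs2, among 12744 genes with a mean of at least 1 CPM, were Mpzl1 (r = 0.91), Fzd6 (r = 0.88) and Mafk (r = 0.88). For Igfbp1 they were Irf2bp2 (r = 0.84), the immediate early gene Nr4a1 (r = 0.83) and Irs2 itself (r = 0.83). For Angptl8 they were Trmt61a (r = 0.89), Mid1ip1 (r = 0.86), which encodes a partner of THRSP in fatty acid synthesis, and Jmjd6 (r = 0.86). These are the highest of 12744 values and describe these libraries.

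Igfbp2, a second binding protein and the most abundant member, had opposite signs in the 2 knockout lines. LKO livers had 648, 968 and 779 CPM at CT14, against 518, 322 and 334 CPM in F livers. At CT2 they had 440, 433 and 718 CPM, against 338, 313 and 359 CPM in F livers. All LKO libraries were above all F libraries at each time, and the mean log2 fold change was 0.84 ± 0.24, which narrowly missed the threshold (edgeR, adjusted p = 0.0616). In the global line KO livers had 631, 391 and 279 CPM at CT14 and 551, 201 and 232 CPM at CT2. WT livers had 486, 513 and 604 CPM at CT14 and 428, 693 and 672 CPM at CT2. One KO library at each time was as high as WT, and the mean log2 fold change was −0.58 ± 0.24 (edgeR, adjusted p = 0.185). Without KO CT2 replicate 1, 1 of the 3 libraries with depleted long transcripts, it became −0.88 and passed the test (edgeR, adjusted p = 0.0178). The other 11 of 12 fits with 1 library left out did not pass. Over all 12 it was −0.88 to −0.46, with adjusted p up to 0.366 (edgeR). The KO effect differed from the LKO effect by −1.43 ± 0.34 (edgeR, adjusted p = 0.121). The control lines also differed, with F lower than WT at a log2 difference of −0.64 ± 0.24, opposite in sign to LKO over F (edgeR, adjusted p = 0.192).

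The overlap of groups can be summarised for the floxed line. At CT14, 3 of 10 members (Igfbp2, Irs1 and Irs2) had every LKO library above every F library and 1 (Lepr) every one below, where 11.9% and 11.7% of all genes did so. At CT2, 2 members (Igfbp2 and Irs2) were above and 1 (Gdf15) below, where 6.1% and 4.46% of all genes did so. In KO against WT at CT2, 0 of 10 members separated in either direction, where the shares over all genes were 7.1% and 6.94%. Angptl8 at CT14 against CT2 was the 1 member higher and Irs2 1 of the 2 lower in LKO, and the same pair were the 1 higher and 1 lower in F. The shares over all genes were 10.4% and 10.3% in LKO, and 9.97% and 9.2% in F. In WT over time, Angptl4 was the 1 member higher and Fgf21, Gdf15 and Irs2 the 3 lower, where 10.5% of all genes were in each class.

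Angptl4, a secreted lipoprotein lipase inhibitor that fasting and PPAR alpha induce, was highest in WT at CT14. KO livers had 67.1, 11.3 and 43.2 CPM at CT14, against 60.8, 102 and 105 CPM in WT livers. The groups overlapped at 1 library each, with a log2 fold change of −1.14 ± 0.55 (edgeR, adjusted p = 0.299). In WT, every CT14 library was above every CT2 library (18.9 to 33.7 CPM), by 1.69 ± 0.56 (edgeR, adjusted p = 0.148). LKO and F overlapped at both times. The genes most like Angptl4 in pattern were Ppargc1b (r = 0.79), N4bp2l1 (r = 0.78) and Mthfd1l (r = 0.77).

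Fgf21, a fasting hormone made by the liver under PPAR alpha and stress signals, was near the lower limit of these data, with 15 to 588 counts per library. At CT14 it had 0.293, 0.347 and 0.879 CPM in KO livers, against 0.172, 0.178 and 0.157 CPM in WT livers. The groups did not overlap, but the log2 fold change of 1.57 ± 0.87 was not called (edgeR, adjusted p = 0.382). LKO livers had 1.28, 1.16 and 4.44 CPM at CT14, against 1.60, 3.25 and 1.29 CPM in F livers, which overlapped. Averaged over times, F exceeded WT by 1.72 ± 0.60 (edgeR, adjusted p = 0.158), so the 2 control lines lay further apart than either knockout from its own control (0.40 ± 0.59 in KO, 0.35 ± 0.58 in LKO). The difference between these contrasts was not tested.

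Gdf15, a stress-induced hormone that acts on the hindbrain, was highest in F at CT2. LKO livers had 2.54, 1.92 and 4.11 CPM at CT2, against 12.2, 4.52 and 9.93 CPM in F livers. The groups did not overlap, although the highest LKO and the lowest F library were close, and the log2 fold change was −1.64 ± 0.54 (edgeR, adjusted p = 0.245). At CT14 LKO livers had 5.13, 3.34 and 3.72 CPM, against 5.02, 5.54 and 4.41 CPM in F livers, with overlap. KO and WT overlapped at both times, with single KO libraries at both extremes (0.622 CPM at CT14 and 8.49 CPM at CT2). F exceeded WT by 1.18 ± 0.38 over both times (edgeR, adjusted p = 0.108). In the F against WT comparison 0 of 10 members were called, where 2.54% of all genes were, and 6 of the 10 had an unadjusted p under 0.05, as did 13.9% of all genes.

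Lepr, the leptin receptor, was the scarcest member per length, with 51 to 677 counts per library. LKO livers had 2.06, 1.38 and 1.79 CPM at CT14, against 2.15, 6.47 and 4.41 CPM in F livers. All LKO libraries were lower, and the log2 fold change was −1.31 ± 0.51 (edgeR, adjusted p = 0.284). The 2 high F libraries, replicates 2 and 3, also had the higher sums of the 8 lymphocyte markers, 25.5 and 22.2 CPM against 9.96 CPM in replicate 1, while LKO CT14 ranged from 8.46 to 12.5 CPM. The 8 Kupffer cell and macrophage markers moved alike, with sums of 878 and 846 CPM in those 2 libraries against 429 CPM in replicate 1, and 386 to 591 CPM in LKO CT14. Their part in the result was not tested. KO and WT overlapped at both times. Leprot, which shares the start of the Lepr locus, averaged 12.8 ± 1.69 CPM in LKO and 14.8 ± 2.41 CPM in F at CT14 (SD, n = 3 each), and the tables do not show how reads of the shared exons were divided.

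Insr, the insulin receptor, did not pass the test in any comparison. At CT14 it had 101, 74.6 and 101 CPM in KO livers, against 89.4, 83.8 and 86.5 CPM in WT livers, and 68.6, 68.9 and 77.8 CPM in LKO livers, against 76.7, 79.4 and 91.1 CPM in F livers. These groups overlapped, and the log2 differences were 0.09 ± 0.22 and −0.20 ± 0.22. The 2 lowest values of all 24 libraries, 51.8 CPM in KO CT2 replicate 1 and 45.7 CPM in F CT2 replicate 3, belonged to libraries with few long transcripts. Irs1, the other adaptor, also varied little, with group means between 15.96 ± 4.81 CPM (F CT2) and 23.4 ± 4.27 CPM (WT CT14; SD, n = 3 each). Every LKO library of Irs1 lay above every F library at CT14, 20.3 to 22.5 CPM against 15.2 to 19.9 CPM, with a log2 difference of 0.28 ± 0.22 (edgeR, adjusted p = 0.821). F was lower than WT over both times, with a log2 difference of −0.48 ± 0.16 (edgeR, adjusted p = 0.124).

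The balance of long and short transcripts was measured in each library as the median log2 deviation of 1099 genes with a median transcript of at least 5000 bases minus that of 2131 genes under 1000 bases, a measure devised after the data were seen. It was −0.59 in KO CT2 replicate 1, −0.52 in F CT2 replicate 3 and −0.35 in LKO CT2 replicate 3, and between −0.10 and 0.19 in the other 21. Insr, whose transcripts have a median of 5014 bases, followed this balance with r = 0.81 (permutation p adjusted over the 10 members 9e-04), rho = 0.59 (adjusted p = 0.0262) and r = 0.45 without the 2 farthest libraries. Gdf15 ran the other way, with r = −0.51 (adjusted permutation p = 0.0643), rho = −0.39 and r = −0.22 without the 2 farthest, so that relation rests on those libraries. The permutations here also ignored the groups. Irs2 did not follow the balance (r = −0.07, rho = −0.20). Its call in KO against WT at CT14 used none of the 3 libraries in either group mean.

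**Figure D5:**
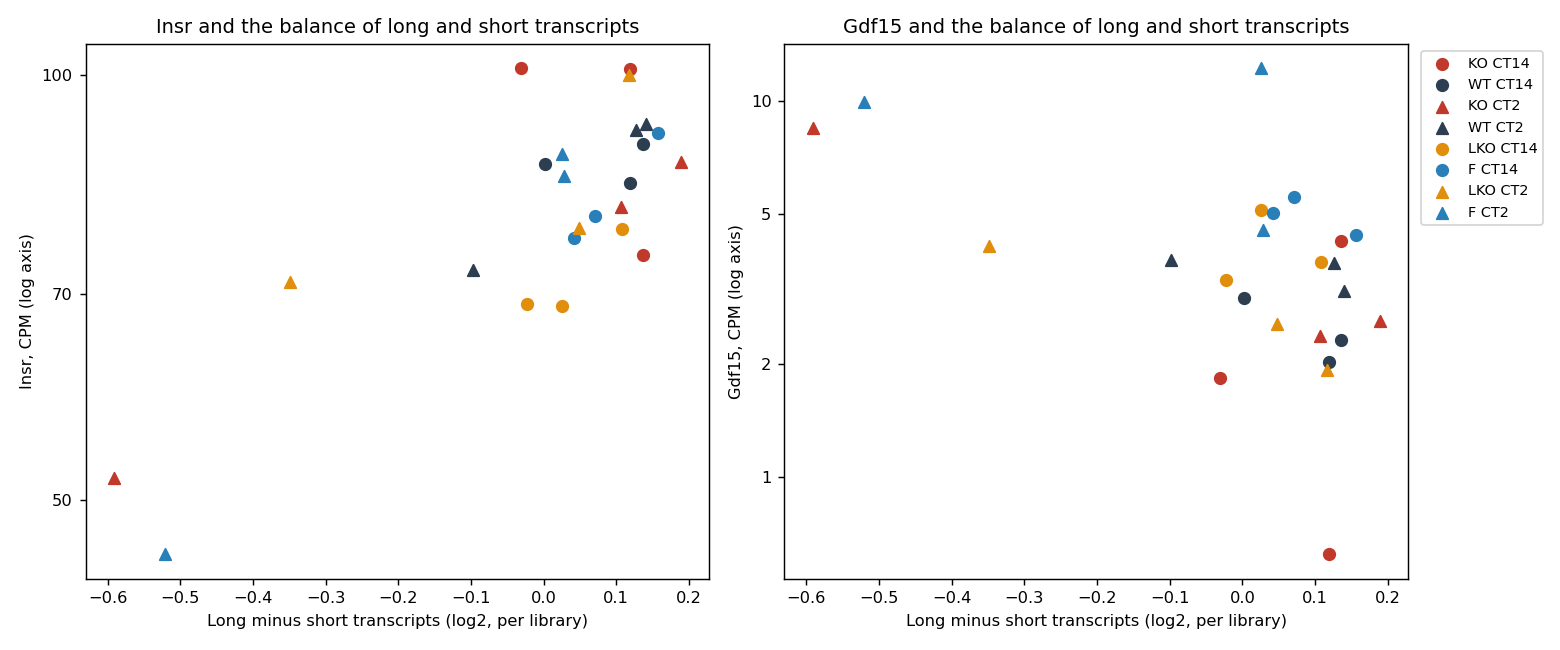
Insr and Gdf15 in CPM (log axis) against the log2 balance of long over short transcripts in each of the 24 libraries, coloured by genotype with circles for CT14 and triangles for CT2. The 3 libraries at −0.59, −0.52 and −0.35 stand apart on the left; KO CT2 replicate 1 and F CT2 replicate 3 hold the lowest Insr values, 51.8 and 45.7 CPM.

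The genes that surround these members in the same pathways were read from 9 lists. Of 39 genes of insulin signalling, its regulators and insulin clearance, 3 were called higher and 2 lower in KO at CT14. Over all genes 3.15% were called higher and 2.15% lower, and the list median log2 fold change was −0.03 against 0.01 for all genes. With 1 library left out the higher count ranged from 1 to 3, and without the 3 libraries with low Ddx3y 5 were lower. Over both times 3 were higher and 5 lower, where 3.11% of all genes were called higher and 2.29% lower. Foxo3, a FOXO factor, fell by 1.47 ± 0.14 and Pik3r1, a regulatory subunit of PI3 kinase, fell by 1.21 ± 0.30 (edgeR, adjusted p = 1.13e-06 and 0.0202). Ceacam1, which promotes insulin clearance, rose by 0.87 ± 0.13 and Grb14, an inhibitor of the receptor kinase, by 0.78 ± 0.19 (edgeR, adjusted p = 0.000294 and 0.019). The call of Pik3r1 was lost when any of 4 of the 6 libraries was left out, and that of Grb14 when any of 3 was. In LKO at CT14, 1 gene was called in each direction, where 0.814% of all genes were called higher and 0.912% lower. Foxo3 fell by 0.71 ± 0.14 and Ceacam1 rose by 0.57 ± 0.13 (edgeR, adjusted p = 0.00544 and 0.0244), with a list median of −0.13 against −0.01 for all genes. The call of Ceacam1 in LKO was lost in 5 of 6 fits with 1 library left out, and that of Foxo3 without LKO CT14 replicate 3. Over both times, Trib3, an inhibitor of AKT, fell by 1.33 ± 0.32 in KO and by 1.28 ± 0.32 in LKO (edgeR, adjusted p = 0.0175 and 0.0317), lost without KO CT2 replicate 3 in KO and in 5 of 12 fits with 1 library left out in LKO. In WT at CT14 against CT2, Foxo3 rose by 1.43 ± 0.14 and Foxo1 by 0.79 ± 0.16, while Ceacam1 fell by 0.50 ± 0.13 (edgeR, adjusted p = 2.81e-06, 0.00688 and 0.045). These were the 2 higher and 1 lower of the 39, where 1.1% of all genes were called higher and 1.44% lower. The call of Ceacam1 was lost with each of the 6 libraries left out and that of Foxo1 without WT CT14 replicate 2.

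Genes that feeding induces, 13 enzymes and factors of glucose use and fat synthesis, were called in 1 direction at CT14. In KO, 3 were called lower and 0 higher, where 2.15% of all genes were called lower, with a median log2 fold change of −1.19 against 0.01 for all genes. Thrsp, a regulator of fatty acid synthesis, averaged 131.6 CPM in KO against 2010.6 CPM in WT (log2 fold change −3.93 ± 0.45, edgeR, adjusted p = 2e-05). Pklr, the liver pyruvate kinase, and Elovl6, a fatty acid elongase, each fell by 2.05, with SE 0.22 and 0.54, and the call of Elovl6 was lost in 3 of 6 fits with 1 library left out. In LKO, 6 of 13 were called lower and 0 higher at CT14, where 0.912% of all genes were called lower, with a median of −1.36 against −0.01 for all genes. Pnpla3, a lipid droplet protein, fell by 6.18 ± 1.03, Thrsp by 2.76 ± 0.43, fatty acid synthase Fasn by 1.80 ± 0.36 and malic enzyme Me1 by 1.36 ± 0.32 (edgeR, adjusted p = 0.00188, 0.00103, 0.00772 and 0.0278). The call of Me1 was lost in 5 of 6 fits with 1 library left out, and that of Fasn without LKO CT14 replicate 2. Pnpla3 averaged 0.14 CPM in LKO at CT14, against 10.4 CPM in F and 1.89 CPM in WT. Fasn averaged 563 CPM in LKO, 1959 CPM in F and 736 CPM in WT at CT14. Over both times Fasn was higher in F than in WT by 1.02 ± 0.25 (edgeR, adjusted p = 0.0309). It was the 1 of the 13 called between the controls, 0 to 2 with 1 library left out, where 1.63% of all genes were called higher. Over time, 4 of 13 rose at CT14 in F, among them Thrsp by 3.45 ± 0.44 and Fasn by 1.77 ± 0.36, and 2 rose in WT, Thrsp by 4.64 ± 0.47 and Pklr by 1.82 ± 0.22. Among all genes, 1.33% were called higher at CT14 in F and 1.1% in WT. The difference between the feeding gene counts of F and WT was not tested. Angptl8, the feeding gene among the members, averaged 174 ± 10.6 CPM in LKO against 162 ± 61.9 CPM in F at CT14 (SD, n = 3 each).

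Genes that fasting induces were called in both directions. Of 17, 1 was called higher and 4 lower in KO over both times, where 3.11% of all genes were higher and 2.29% lower, with a median of −0.36 against 0.01. The largest falls were in Cyp4a10, a fatty acid hydroxylase, by 2.45 ± 0.63 and Acot1, an acyl-CoA thioesterase, by 1.82 ± 0.50 (edgeR, adjusted p = 0.0287 and 0.0379), calls lost in 8 and 9 of the 12 fits with 1 library left out. At CT14, 2 were called higher and 2 lower in KO, and 2 and 4 without the 3 libraries with low Ddx3y, with a median of −0.29 against 0.01 for all genes. The shares over all genes were 3.15% higher and 2.15% lower. Pdk4, the kinase that shuts pyruvate dehydrogenase, rose by 3.32 ± 0.51 and Plin2, a lipid droplet coat protein, by 0.91 ± 0.18 (edgeR, adjusted p = 0.000436 and 0.00382). Tat, tyrosine aminotransferase, fell by 1.57 ± 0.28 and Fgf1 by 1.19 ± 0.20 (edgeR, adjusted p = 0.00134 and 0.000673). In LKO at CT14, 0 were called higher and 1 lower, Fgf1, by 1.16 ± 0.20 (edgeR, adjusted p = 0.00171), with a median of 0.05 against −0.01. The shares over all genes there were 0.814% higher and 0.912% lower. Over both times Pdk4 was higher in LKO by 1.298 ± 0.33 (edgeR, adjusted p = 0.0371), lost in 8 of 12 fits with 1 library left out.

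Among the partners of the lipase inhibitors, the target enzyme was called in every comparison of knockout with control. Lpl, lipoprotein lipase, the target of ANGPTL4 and ANGPTL8, averaged 209 CPM in KO against 11.6 CPM in WT at CT14 and 207 CPM in LKO against 9.83 CPM in F. Its log2 fold change was 4.17 ± 0.40 in KO and 4.40 ± 0.41 in LKO at CT14, and 3.67 ± 0.39 and 3.52 ± 0.39 at CT2 (edgeR, adjusted p of at most 7.22e-05 in each). Adipocyte markers, another source of Lpl, summed to 0.529 to 0.853 CPM in KO and 2.2 to 2.71 CPM in WT at CT14, and macrophage markers to 423 to 499.5 CPM in KO and 433 to 728 CPM in WT. In the floxed line at CT14 the adipocyte sum was 0.557 to 1.56 CPM in LKO and 1.17 to 3.01 CPM in F, and the macrophage sum 386 to 591 CPM in LKO and 429 to 878 CPM in F. Of the 5 adipocyte markers, Cidec reached 2.72 CPM and was in every library, while Lep was at 0 in all 24, Plin1 in 20 and Adipoq in 10. Lipc, hepatic lipase, rose over both times by 0.54 ± 0.09 in KO and 0.82 ± 0.10 in LKO. Between the controls, Lipc was lower in F than in WT by 0.46 ± 0.09 (edgeR, adjusted p = 0.0166). It was the 1 of these 7 genes called there, where 0.912% of all genes were called lower. Lipg, endothelial lipase, fell by 1.37 ± 0.27 in KO and by 1.13 ± 0.27 in LKO (edgeR, adjusted p = 0.0035 and 0.0215), in LKO a call lost in 5 of 12 fits with 1 library left out. The other 4 of these 7 genes were not called over both times in either line, and the medians were 0.12 in KO and 0.16 in LKO against 0.01 and −0.01 for all genes. Among all genes, 3.11% were called higher and 2.29% lower in KO, and 1.7% and 1.43% in LKO.

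Around FGF21, 3 of 11 genes fell in KO over both times and 0 rose. Over all genes, 2.29% were called lower and 3.11% higher. The list median was −0.24 against 0.01 for all genes. Fgf1 fell by 0.94 ± 0.14, the receptor gene Fgfr3 by 0.75 ± 0.15 and Mlxipl, the glucose-sensing factor ChREBP, by 0.40 ± 0.11. In LKO, 2 fell, Fgf1 by 0.93 ± 0.14 and Mlxipl by 0.45 ± 0.11, with a median of −0.14 against −0.01. The shares over all genes in LKO were 1.43% lower and 1.7% higher. The call of Mlxipl was lost in 9 of 12 fits with 1 library left out in KO and 7 of 12 in LKO. In KO at CT14, 3 of the 11 were called lower and 1 higher, where 2.15% and 3.15% of all genes were. Among them Ppara, which encodes PPAR alpha, fell by 0.96 ± 0.28 and the receptor gene Fgfr4 rose by 0.65 ± 0.18 (edgeR, adjusted p = 0.0462 and 0.031). With 1 library left out these counts were 2 to 3 lower and 0 to 1 higher. Over time in F, 3 of the 11 were called higher at CT14 and 0 lower, where 1.33% of all genes were called in each direction. They were Fgf1 by 1.16 ± 0.20, Ppara by 1.06 ± 0.28 and the co-receptor gene Klb by 0.93 ± 0.23 (edgeR, adjusted p = 0.00215, 0.0439 and 0.0321). The call of Klb was lost in 5 of 6 fits with 1 library left out, and the higher count ranged from 1 to 2 over these fits. Around GDF15, 7 of 8 stress response genes were tested. Asns, asparagine synthetase, fell by 3.88 ± 0.53 in KO and by 2.84 ± 0.49 in LKO over both times (edgeR, adjusted p = 0.000129 and 0.00189). Atf5 rose by 2.05 ± 0.27 in KO and by 1.36 ± 0.26 in LKO at CT14 (edgeR, adjusted p = 6.77e-05 and 0.00648), in LKO lost without F CT14 replicate 3. Over both times F exceeded WT in Asns by 1.77 ± 0.47 and in Atf5 by 0.72 ± 0.18 (edgeR, adjusted p = 0.0487 and 0.042). These were the 2 of 7 called between the controls, 0 to 2 with 1 library left out, where 1.63% of all genes were called higher. The list counts over both times were 1 higher and 2 lower in KO and 0 higher and 2 lower in LKO, with medians of −0.40 in KO and −0.56 in LKO against 0.01 and −0.01 for all genes. The shares over all genes were 3.11% higher and 2.29% lower in KO, and 1.7% and 1.43% in LKO.

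Of 10 genes of the insulin-like growth factor system, Igfbp3 was the 1 called, higher in LKO at CT2 and over both times. Of all genes, 0.273% and 1.7% were called higher in these comparisons. Igfbp3 rose by 1.23 ± 0.25 at CT2 and by 0.72 ± 0.18 over both times (edgeR, adjusted p = 0.0299 and 0.0268). At CT2 the call was lost with the replicate block (1.22 ± 0.27, edgeR, adjusted p = 0.0547), without F CT2 replicate 1 or 2 or LKO CT2 replicate 2, and without the 3 libraries with low Ddx3y. Over both times it was lost in 7 of 12 fits with 1 library left out. None was called in KO over both times, where 5.4% of all genes were called and the list median was −0.16 against 0.01 for all genes. Of 6 leptin signalling genes tested, Leprotl1 rose over both times by 0.43 ± 0.08 in KO and by 0.34 ± 0.08 in LKO (edgeR, adjusted p = 0.00233 and 0.0187), in LKO lost in 3 of 12 fits with 1 library left out. Of all genes, 3.11% were called higher in KO and 1.7% in LKO. Of 17 other hepatokine genes tested, 1 rose and 2 fell in LKO over both times, with a median of −0.14. Among all genes, 1.7% were called higher and 1.43% lower there. Fst, which encodes follistatin, rose by 1.55 ± 0.28, while Orm1 fell by 1.28 ± 0.35 and Enho, which encodes adropin, by 0.96 ± 0.21 (edgeR, adjusted p = 0.00227, 0.0474 and 0.0119), and the call of Orm1 was lost in 10 of 12 fits with 1 library left out. In KO at CT14 Fst rose by 1.41 ± 0.39 (edgeR, adjusted p = 0.0378), the 1 of the 17 called, where 3.15% of all genes were called higher. Tsku, a secreted feeding-responsive protein, rose at CT14 in WT by 2.65 ± 0.69 and in F by 3.57 ± 0.72 (edgeR, adjusted p = 0.0473 and 0.0103). Among all genes, 1.1% rose over time in WT and 1.33% in F. The call of Fst in KO was lost in 4 of 6 fits with 1 library left out, and that of Tsku in all 6 such fits in WT and without F CT14 replicate 1 in F.

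The authors' deposited tables, made with another model, hold 100 values for the 10 members over 10 of these comparisons, of which 18 had an adjusted p under 0.05, in 8 of the members. Of the 3 calls made here in the same comparisons, 2 were among them. The other was Irs2 in LKO against F over both times, with a log2 fold change of 0.90 (adjusted p = 0.529) in the authors' deposited table. In the authors' deposited table Irs2 had a log2 fold change of 2.27 (adjusted p = 2.22e-09) in KO against WT at CT14 and 1.35 (adjusted p = 4.66e-18) in LKO against F at CT14. In the authors' deposited table Igfbp1 had 3.54 (adjusted p = 0.003) in KO against WT at CT14, and Angptl8 had 2.78 (adjusted p = 1.97e-15) in LKO at CT14 against CT2. In the authors' deposited table Igfbp2 had 0.87 (adjusted p = 0.00516) in LKO against F over both times, and Lepr −1.31 (adjusted p = 0.00583) in LKO against F at CT14. For Irs2 in KO against WT over both times the authors' deposited table had 0.98 (adjusted p = 0.295).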

How the data were processed

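Polyadenylated RNA from the livers of 24 mouse samples was sequenced, and each library was assigned to 1 of 8 groups from its title, with 0 columns left unassigned. Per the submitters' processing notes, the tools included StringTie 1.3.1, HISAT2 2.2.1 and fastp 0.23.2, with genome GRCm39. The annotation release and the strand setting are not stated. The authors deposited estimated counts per Ensembl gene, whole numbers that piled up at multiples of 4, so counting precision is overstated for weakly expressed genes such as Fgf21 and Lepr. The authors also deposited TPM values, which were used for levels between genes. The log2 fold changes and p-values of the authors' own DESeq2 comparisons were deposited as further tables.

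edgeR 4.0.16 (R 4.3.3) was run on the estimated counts. The filter filterByExpr used a count minimum of 10 and a total of 15. With TMM scaling, 1 robust quasi-likelihood model with 8 group means was fitted to all libraries, and p-values were Benjamini-Hochberg adjusted over all 20514 genes tested, with calls at 0.05. Every adjusted p is from this model unless another tool is named. Alternatives were DESeq2 1.42.0, RLE factors, no filter, counts divided by 4, limma 3.58.1 on log2(TPM + 1), a replicate block, and libraries left out. The model recovered seeded changes in counts simulated from its own fitted dispersions. Those counts held no pancreatic, spermatid or transcript-length differences between libraries, so the check does not cover them. No replicates were duplicates by a chi-square test of their counts.

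The 10 members were chosen, and the 9 lists fixed, with earlier results of these data known. Text names all members, Bmal1, up to 4 called genes with the largest fold change per list and comparison, and the 3 genes most correlated with a member on log2 CPM (prior count 2). A feeding-list gene that this rule selects is not reported here. Replicate numbers come from the titles. Same-numbered libraries deviated together in LKO against F at CT2 (correlations of 0.18, 0.14 and 0.31), so the blocked fit was set beside the unblocked one there. It also called 0 members. In other comparisons at least 1 correlation was under 0.1. Promoter sequences and gene overlaps came from RefSeq and GENCODE annotation on GRCm38, another build than the counts used.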

Additional observations from a re-analysis of the deposited data

Results flagged for a closer look

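The time effect of Irs2 differed between KO and WT, by 2.85 ± 0.52 on the log2 scale in the test of the difference itself (edgeR, adjusted p = 0.0074). All 3 KO libraries at CT14 lay above all 3 KO libraries at CT2, and all 3 WT libraries at CT14 lay below all 3 WT libraries at CT2. Groups of 3 libraries are too small to single out one library as an outlier by a test, and none was applied.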

How the results depend on the processing

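No called result changed sign under the alternatives run. The Irs2 calls in KO against WT at CT14, in F over time and in the difference of time effects between KO and WT held under all 9 alternatives and each left-out library. The number of members called changed elsewhere. For KO against WT over both times it was 0, against 1 with DESeq2, 1 with counts divided by 4, 1 with limma on TPM and 2 without the 3 libraries with low Ddx3y. For KO against WT at CT2 it was 0, and 1 without those 3 libraries. For KO against WT at CT14 it was 1, and 2 with DESeq2. For LKO against F over both times it was 1, against 2 with DESeq2, limma or leaving out 2 KO libraries that held spermatid transcripts, and 0 without the 2 F libraries with pancreatic transcripts or the 3 with low Ddx3y. For LKO against F at CT14 it was 0, and 1 with DESeq2, limma or without the 3 low-Ddx3y libraries. Over time DESeq2 called 3 in WT, 1 in KO, 2 in F and 3 in LKO, against 0, 0, 1 and 0, and counts divided by 4 and limma each called 1 in LKO. The time effect of KO against WT had 1 and 2 with DESeq2. The KO effect against the LKO effect had 0, and 1 with DESeq2, limma or without the low-Ddx3y libraries. F against WT had 0, against 2 with DESeq2 and 1 without the spermatid libraries. The cause of these changes was not tested.

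With each library left out in turn, the members called ranged from 0 to 2 for KO against WT over both times and from 1 to 2 at CT14, with 0 at CT2. They ranged from 0 to 1 for LKO against F over both times, WT over time, F against WT, and the KO effect against the LKO effect. They stayed at 1 for F over time and for the time effect of KO against WT, and at 0 for LKO against F at CT2 and CT14, KO and LKO over time and the time effect of LKO against F. The replicate block left the count of members called at 0 for LKO against F at CT2 and changed it in no other comparison. Of the list genes and Bmal1 called in LKO against F at CT2, Igfbp3 was the 1 whose call the block ended.

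Over all genes the count of calls moved more than 1.5 times. KO against WT had 1107 calls (866 to 1753 over alternatives, 763 to 987 with a library left out) over both times, 106 (81 to 371, 50 to 108) at CT2 and 1089 (795 to 1915, 632 to 902) at CT14. LKO against F had 642 (479 to 1645, 415 to 694), 82 (65 to 410, 44 to 155) and 354 (245 to 860, 171 to 276). Over time there were 521 in WT (410 to 1100, 270 to 414), 0 in KO (0 to 37, 0 to 8), 545 in F (207 to 1172, 240 to 578) and 174 in LKO (81 to 662, 10 to 59). Of the 13 feeding genes, 3 were called lower in KO at CT14, 2 to 6 over the alternatives, and 6 in LKO, 5 to 9; applying the alternatives to the lists and their genes was chosen after seeing the data. Depth limits Fgf21, Gdf15 and Lepr, whose lowest counts per library were 15, 68 and 51.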

Other observations

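The genes most like the remaining members in pattern over the 24 libraries, among 12744 genes, are given as a description. For Insr they were Rictor (r = 0.86), Bptf (r = 0.86) and Tjp1 (r = 0.86). For Gdf15 they were Timm10b (r = 0.76), Mrps12 (r = 0.74) and Naa38 (r = 0.73). For Igfbp2 they were Lsm14b (r = 0.79), Gm44096 (r = 0.76) and Cyp4a32 (r = 0.71), for Irs1 Stam (r = 0.80), Cdk8 (r = 0.79) and Mapt (r = 0.77), and for Lepr Marchf1 (r = 0.79), Cd55 (r = 0.77) and Rassf2 (r = 0.76). Among the pairs of members not described so far, Gdf15 and Insr had r = −0.64 (permutation p adjusted over 45 pairs 0.0138) and rho = −0.60 (adjusted p = 0.0294). These 2 genes ran in opposite directions with the balance of long and short transcripts, whose part in this r was not tested. Angptl4 and Gdf15 had r = −0.56 (adjusted permutation p = 0.0412) and rho = −0.53 (adjusted p = 0.0806).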
